A study of Homo sapiens with 6 samples.

Results

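Aminoacyl-tRNA synthetases are the enzymes that join each amino acid to its tRNA. The RNAs of 35 human synthetase genes were followed in a count table of 60671 gene IDs. The genes were chosen by name from the family, and no measured value enters that rule, but earlier results of these data were known when the family was chosen. Of these, 19 encode cytosolic enzymes, GARS1 and KARS1 among them serving both compartments, and 16 encode mitochondrial enzymes, whose symbols end in 2. All 35 had a row and all 35 passed the filter on low counts. The study asked how mutants of SYNJ2BP, a protein of the outer mitochondrial membrane, alter the RNA bound to it. HEK cells, a human embryonic kidney line, were transfected with calcium phosphate, and RNA recovered with an anti-myc antibody was sequenced after removal of ribosomal RNA. There were 3 libraries named WT.Control and 3 named AAA.mito, the latter from cells with the AAA mutant of SYNJ2BP, called control and mutant libraries here. The labels give the control cells as untreated, and do not say which protein those cells expressed, which residues AAA changes, what mito refers to, or whether replicates were separate cultures. P-values therefore measure only the spread between these libraries, which may be technical.

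Each synthetase recognises one amino acid and its tRNAs, and cytosolic enzymes exist for all the standard amino acids. The aspartyl enzymes were not analysed here. Mitochondria translate their own few messages with a separate set of enzymes, which are encoded in the nucleus, made in the cytosol and imported. Several cytosolic enzymes sit together in the multisynthetase complex, and many cytosolic synthetase genes are targets of ATF4, the transcription factor of the amino acid response. The precipitates were not compared with input RNA, whose libraries were not analysed here, so less RNA bound and less RNA in the cells cannot be told apart.

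Library totals ran from 3287218 counts in mutant replicate 2 to 73331652 in mutant replicate 3. Background was taken from the count density, per base of gene span, of 381 olfactory receptor genes, which are barely transcribed outside the nose. At that density, background made up 37.9%, 84.4% and 7.48% of nuclear counts in control replicates 1 to 3. The shares were 55.5%, 81.8% and 6.61% in the mutant replicates with the same numbers. Replicate 2 of both groups therefore carried little signal above background, and the shares differed most within a pair in replicate 1. Libraries with the same number resembled each other, so each mutant library was also compared with the control library of its number, and these couples are called pairs. VIM and KRT18, expected in HEK cells, stood at 253 and 111 times background in control replicate 3, while the blood gene PTPRC stood at 0.97, HBB of red cells at 0.44 and ALB of liver at 0.91. NEFM, CDH2, KRT8 and PAX2, also expected in HEK cells, reached 91.1, 14.0, 8.26 and 2.87 times background in that library. COL1A1 and ACTA2 of mesenchyme reached 16.8 and 9.86, GFAP of glia 5.46, PECAM1 of endothelium 1.34 and CD3E of blood 0.74.

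The synthetase RNAs were lower in most mutant libraries than in the paired control libraries: in pair 1 for 19 of 19 cytosolic and 12 of 16 mitochondrial enzymes, in pair 2 for 16 and 10, and in pair 3 for 18 and 12. Over all tested genes 56.0%, 51.9% and 58.8% were lower in pairs 1 to 3, and over genes more than 8 times above background 88.4%, 49.6% and 85.5% were. Levels in single libraries are given in CPM, the gene's count scaled to the library's total after TMM adjustment. The planned main test left the replicate number out, because the labels do not say that it marks a shared batch, and called 0 genes. With the replicate number in the fit, edgeR's quasi-likelihood test with Benjamini-Hochberg adjustment at 0.05 called 5 of the 35 lower and 0 higher. These were AARS1, MARS1, NARS1 and KARS1 of the cytosolic enzymes and VARS2 of the mitochondrial ones. Over all 33375 genes tested, 1.40% were called lower and 0.00599% higher. Among the 4416 tested genes that lay more than 8 times above background, 8.47% were called lower. Of the 35 synthetases, 21 were in that group, 17 cytosolic and 4 mitochondrial, and 4 of those 21 were called. In the fit without the replicate number no synthetase was called and 0.00% of all genes were. At an unadjusted p under 0.05 that fit held 25 genes and 0 synthetases. DESeq2 called 0 genes as well, with 70 genes and 1 synthetase at an unadjusted p under 0.05, and limma-voom 0, with 2 genes and 0 synthetases.

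**Figure D1:**
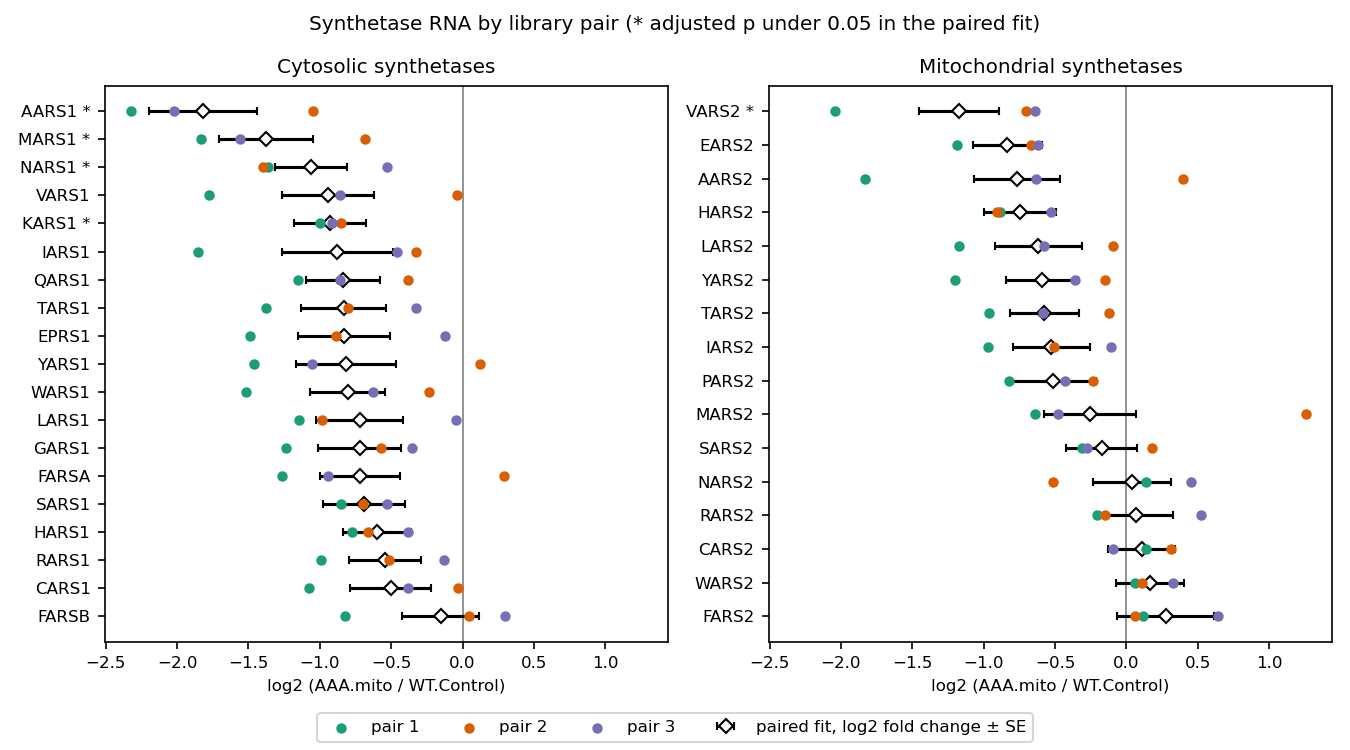
Log2 difference of mutant from control CPM for each of 19 cytosolic (left) and 16 mitochondrial (right) synthetases, one coloured point per library pair. Diamonds and bars give the paired edgeR log2 fold change ± SE over 3 pairs, and asterisks mark the 5 genes with an adjusted p under 0.05. Points of pair 1 lie furthest left for most genes, and all 19 cytosolic diamonds lie below 0.

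All 19 cytosolic enzymes had a negative log2 fold change in the paired fit, with a median of -0.82, and 11 of the 16 mitochondrial enzymes did, with a median of -0.52. The fold change was negative for 58.8% of all tested genes, with a median of -0.08, and for 88.5% of genes far above background, with a median of -0.51. An unadjusted p under 0.05 with a lower value was found for 17 cytosolic and 6 mitochondrial enzymes, against 9.17% of all tested genes and 40.8% of genes far above background. For 16 cytosolic and 8 mitochondrial enzymes the mutant library was lower in all 3 pairs, which held for 18.2% of all tested genes and 39.4% of those far above background. The shift differed between pairs. The cytosolic median was -1.26 in pair 1, -0.57 in pair 2 and -0.53 in pair 3, and the mitochondrial one was -0.85, -0.13 and -0.40. Control and mutant libraries overlapped for every one of the 35 genes once pairs were ignored, and replicate 2 was low in both groups. Over all tested genes, 0.446% were lower without overlap.

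When any one pair was left out, 0 synthetases were called. With normalization factors taken from genes far above background alone, the median of all genes moved from -0.08 to 0.39, 0.0120% of all genes were called lower, and 0 synthetases were. On that scale the cytosolic median was -0.33, with 18 of 19 enzymes below 0, and the mitochondrial median was -0.04, with 9 of 16 below 0.

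AARS1, the alanyl enzyme, had the largest difference of the 35. It lies on chromosome 16, 70252295 to 70289543, minus strand, in GENCODE release 29 on GRCh38. Its CPM values were 648, 70.6 and 832 in control replicates 1 to 3 and 129, 34.2 and 205 in the mutant replicates, with means of 517 ± 397 and 123 ± 85.5 (SD, n = 3). Each mutant library was below the control library of its number, although mutant replicates 1 and 3 were above control replicate 2. The paired log2 fold change was -1.82 ± 0.38 (SE, 3 pairs), with an adjusted p of 0.00755 in edgeR. The adjusted p ran from 0.00288 to 1 over the alternative settings, and the fold change was negative in all of them. AARS1 was also the synthetase furthest above background, 31.7 times on average.

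MARS1, the methionyl enzyme of the multisynthetase complex, followed the same order of libraries. It lies on chromosome 12, 57475445 to 57517569, plus strand. The control libraries held 351, 46.8 and 445 CPM and the mutant libraries 98.7, 29.1 and 151, with means of 281 ± 208 and 92.9 ± 61.2 (SD, n = 3). All 3 mutant libraries were lower than their partners. The paired log2 fold change was -1.38 ± 0.33 (SE), with an adjusted p of 0.0229 in edgeR and 0.0284 to 1 over the alternatives. ARHGAP9 on the opposite strand covers 31.7% of the MARS1 span, and whether the counting used strand is not known from the labels.

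NARS1, the asparaginyl enzyme, lies on chromosome 18, 57600656 to 57622213, minus strand, and overlaps no annotated gene. It had 73.8, 17.1 and 64.9 CPM in the control libraries and 28.7, 6.47 and 44.9 in the mutant libraries, with means of 51.9 ± 30.5 and 26.7 ± 19.3 (SD, n = 3). The differences in pairs 1 and 2 were -1.36 and -1.40, and that in pair 3 was smaller at -0.53. Mutant replicate 2 stood at 0.97 times background for this gene, so its value there was no higher than background. The paired log2 fold change was -1.06 ± 0.25 (SE), with an adjusted p of 0.0219 in edgeR and 0.0514 to 1 over the alternatives.

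KARS1 makes the lysyl enzyme of both compartments from one gene, on chromosome 16, 75627474 to 75648643, minus strand. Its CPM values were 84.6, 17.6 and 117 in the control libraries and 42.3, 9.70 and 62.1 in the mutant libraries, with means of 73.1 ± 50.8 and 38.0 ± 26.5 (SD, n = 3). The 3 pairs differed by similar amounts, pair 2 by -0.85 and pair 3 by -0.92. The paired log2 fold change was -0.93 ± 0.25 (SE), with an adjusted p of 0.0497 in edgeR, just under the threshold, and 0.177 to 1 over the alternatives. GARS1, the glycyl enzyme that also serves both compartments, had a log2 fold change of -0.72 ± 0.29 (SE) and an adjusted p of 0.290 in edgeR.

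**Figure D2:**
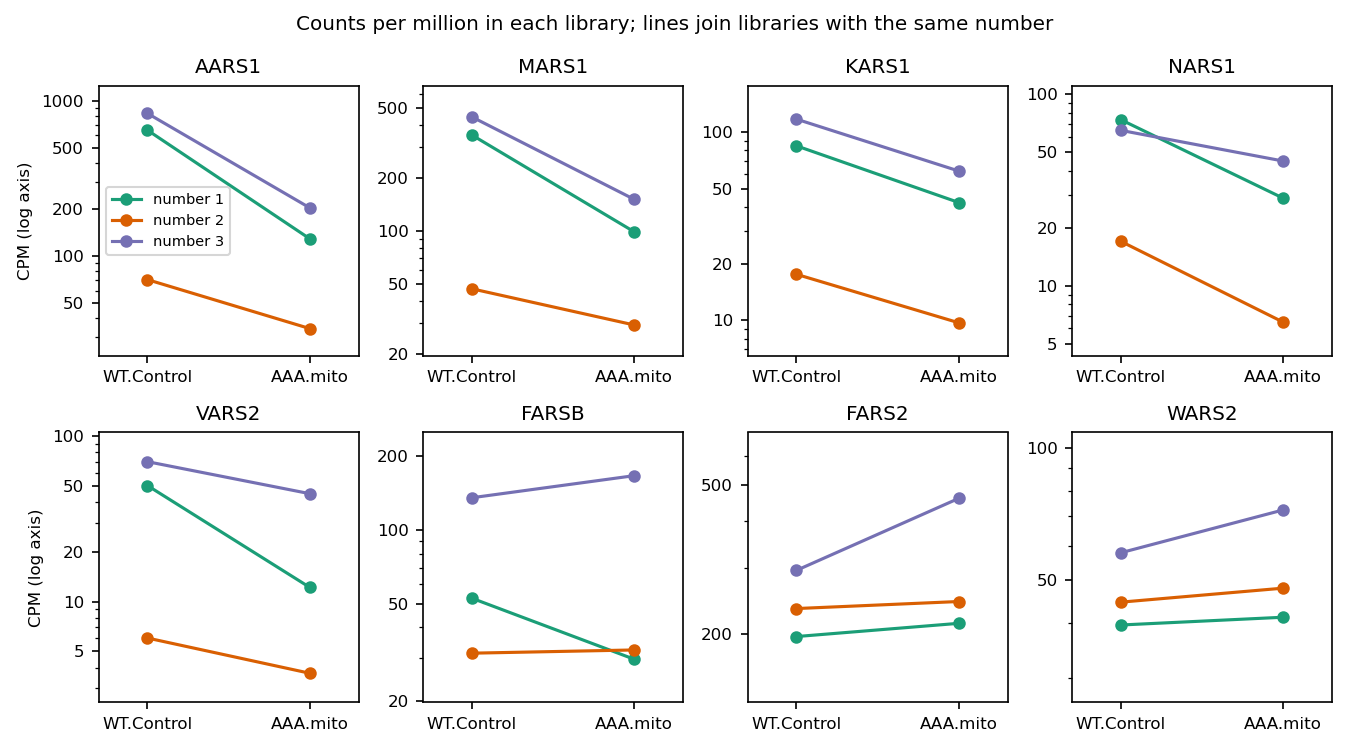
CPM (log axis) of 8 synthetases, the 5 called lower and FARSB, FARS2 and WARS2, with control and mutant libraries of one number joined by a line. Lines of AARS1, MARS1, NARS1, KARS1 and VARS2 slope down in all 3 pairs, and those of FARS2 and WARS2 slope up.

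Motifs in the promoters were searched because ATF4 binds a known element, the C/EBP-ATF response element, whose core TGATGCAA was looked for on both strands. RefSeq promoter windows on GRCh38.p14, from 250 bases before to 50 after a start, were found for 30 of the 35 genes, 16 cytosolic and 14 mitochondrial. VARS1, LARS1, YARS1, AARS2 and the called gene VARS2 had no window and were not searched. The core was found for 6 of the 16 cytosolic genes and 0 of the 14 mitochondrial ones, against 1.08% of all 27305 genes with windows. The 6 sites are shown 5′ to 3′ on the gene's strand with the core, or its reverse complement TTGCATCA, in capitals. AARS1 (chr16:70289675-70289704, minus), CARS1 (chr11:3057407-3057436, minus), IARS1 (chr9:92293692-92293721, minus), MARS1 (chr12:57488053-57488082, plus), NARS1 (chr18:57621804-57621833, minus) and TARS1 (chr5:33440956-33440985, plus) read as follows.
AARS1: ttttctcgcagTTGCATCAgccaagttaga
CARS1: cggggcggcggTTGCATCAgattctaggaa
IARS1: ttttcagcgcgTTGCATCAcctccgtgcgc
MARS1: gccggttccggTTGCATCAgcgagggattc
NARS1: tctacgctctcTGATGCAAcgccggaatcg
TARS1: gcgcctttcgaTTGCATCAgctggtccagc
Of the called cytosolic genes, AARS1, MARS1 and NARS1 hold the core and KARS1 does not. The 6 genes with the core had a median paired log2 fold change of -0.97, from -1.82 in AARS1 to -0.50 in CARS1. The 10 cytosolic genes whose window lacked it had a median of -0.72, from -0.93 to -0.15, and the ranges overlapped. VARS1, YARS1 and LARS1, which had no window, are in neither group and had -0.94, -0.82 and -0.72. The looser core TGATGNAA, which includes the first, was found for 8 of the 30 genes, among them the mitochondrial YARS2, and for 4.46% of all genes with windows. A match of letters is a description of these windows and not a measured binding site.

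The 7 enzymes of the multisynthetase complex (EPRS1, IARS1, KARS1, LARS1, MARS1, QARS1 and RARS1) were lower in all 3 pairs without exception. Their median paired log2 fold change was -0.84, and MARS1 and KARS1 were called. The 12 cytosolic enzymes outside the complex had a median of -0.76, with AARS1 and NARS1 called. Of these 12, 9 were lower in all 3 pairs, as were 39.4% of genes far above background. QARS1, the glutaminyl enzyme, had a log2 fold change of -0.84 ± 0.26 (SE) and an adjusted p of 0.103 in edgeR. EPRS1, which joins the glutamyl and prolyl enzymes in one chain, had -0.83 ± 0.32 (SE), but its difference shrank from -1.49 in pair 1 to -0.12 in pair 3. LARS1, the leucyl enzyme, likewise went from -1.15 to -0.05. RARS1, the arginyl enzyme, had the smallest log2 fold change of the complex, -0.54 ± 0.25 (SE).

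The 13 cytosolic enzymes listed as ATF4 targets had a median paired log2 fold change of -0.83, with 3 called, and the 6 other cytosolic enzymes had -0.66, with 1 called. By catalytic fold, the 18 class I enzymes had a median of -0.67 with 2 called, and the 16 class II enzymes -0.70 with 3 called. EPRS1, with a domain of each class, was left out of that split. None of these differences between groups of genes was tested.

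Among the cytosolic enzymes that were not called, FARSB and CARS1 had the log2 fold changes nearest to 0. FARSB, the beta subunit of the phenylalanyl enzyme, had 52.6, 31.4 and 135 CPM in the control libraries and 29.6, 32.3 and 166 in the mutant libraries. Its mutant library was lower in pair 1 and slightly higher in pairs 2 and 3, and the paired log2 fold change was -0.15 ± 0.27 (SE). FARSA, the alpha subunit of that enzyme, had a paired log2 fold change of -0.72 ± 0.28 (SE), with pair 2 at 0.29. CARS1, the cysteinyl enzyme, had 115, 30.2 and 201 CPM in the control libraries and 54.8, 29.6 and 154 in the mutant libraries. Its pair 2 values were nearly equal, and the paired log2 fold change was -0.50 ± 0.28 (SE), with an adjusted p of 0.620 in edgeR. FARSB and WARS1 were the cytosolic genes not far above background, at 4.38 and 5.65 times.

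VARS1, the valyl enzyme, had the largest log2 fold change among the cytosolic genes that were not called, -0.94 ± 0.32 (SE), with an adjusted p of 0.167 in edgeR. Its pair differences ran from -1.78 in pair 1 to -0.04 in pair 2. IARS1, the isoleucyl enzyme, showed the same unevenness, with -1.85 in pair 1 and -0.33 in pair 2, and its adjusted p was 0.398 in edgeR. In YARS1, the tyrosyl enzyme, the mutant library was higher in pair 2, by 0.12. TARS1, SARS1 and HARS1, the threonyl, seryl and histidyl enzymes, were lower in all 3 pairs, with paired log2 fold changes of -0.83, -0.69 and -0.60, and WARS1, the tryptophanyl enzyme, was too, with -0.81. None of these genes passed the adjusted threshold. An antisense gene covers 47.1% of the WARS1 span and had a paired log2 fold change of -1.08, so the WARS1 count is uncertain.

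VARS2, the mitochondrial valyl enzyme, was the mitochondrial gene called lower. It lies on chromosome 6, 30908242 to 30926459, plus strand. Its CPM values were 50.2, 6.03 and 70.0 in the control libraries and 12.2, 3.69 and 44.9 in the mutant libraries, with means of 42.1 ± 32.8 and 20.3 ± 21.7 (SD, n = 3). Pair 1 differed most, by -2.04, while pairs 2 and 3 differed by -0.70 and -0.64. In pair 2 the gene stood at 1.04 times background in the control and 0.66 in the mutant library, so that pair compared background with background. The paired log2 fold change was -1.17 ± 0.28 (SE), with an adjusted p of 0.0213 in edgeR and 0.0265 to 1 over the alternatives. GTF2H4, a transcription factor subunit gene on the same strand, overlaps 32.2% of the VARS2 span and had a log2 fold change of -0.24, so reads in the shared stretch cannot be assigned to one of them.

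The next mitochondrial genes by p-value did not pass the threshold. EARS2, the glutamyl enzyme, had 54.5, 12.9 and 54.9 CPM in the control libraries and 23.9, 8.08 and 35.6 in the mutant libraries. Each mutant library was lower than its partner, and the paired log2 fold change was -0.84 ± 0.24 (SE), with an adjusted p of 0.0741 in edgeR. In pair 2 EARS2 stood at 1.13 times background in the control and 0.735 in the mutant library, so that pair too compared background with background. HARS2, the histidyl enzyme, had 28.7, 6.10 and 31.7 CPM in the control libraries and 15.5, 3.23 and 22.0 in the mutant libraries. It too was lower in every pair, with a paired log2 fold change of -0.75 ± 0.25 (SE) and an adjusted p of 0.156 in edgeR. AARS2, the mitochondrial alanyl enzyme, had 142, 9.11 and 78.6 CPM in the control libraries and 39.9, 12.0 and 50.7 in the mutant libraries. Its mutant library was the higher one in pair 2, and the paired log2 fold change was -0.77 ± 0.30 (SE), with an adjusted p of 0.275 in edgeR. AARS2 lies wholly within another annotated gene, so its counts are uncertain.

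FARS2 and WARS2, the phenylalanyl and tryptophanyl enzymes of mitochondria, were the synthetases with a higher mutant library in all 3 pairs. FARS2 had 197, 234 and 296 CPM in the control libraries and 214, 244 and 461 in the mutant libraries, with a paired log2 fold change of 0.27 ± 0.34 (SE) and an adjusted p of 0.948 in edgeR. WARS2 had 39.6, 44.6 and 57.8 in the control libraries and 41.2, 48.0 and 72.4 in the mutant libraries, with a paired log2 fold change of 0.17 ± 0.24 (SE) and an adjusted p of 0.963. Neither difference was larger than its standard error. Both genes lay close to background, at 3.04 and 2.97 times, and both are long, with spans of 568 and 109 kb. NARS2, RARS2 and CARS2, the asparaginyl, arginyl and cysteinyl enzymes, also had positive log2 fold changes, from 0.04 to 0.11, with pairs of both signs.

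The remaining mitochondrial enzymes lay between these. LARS2, YARS2, TARS2, IARS2 and PARS2, for leucine, tyrosine, threonine, isoleucine and proline, were lower in all 3 pairs, with paired log2 fold changes from -0.62 to -0.52. MARS2 and SARS2, for methionine and serine, had -0.26 and -0.17, with the mutant library higher in pair 2. The pairs of MARS2 disagreed, with 1.26 in pair 2 against -0.64 in pair 1, at 0.94 CPM in control replicate 2. MARS2 and SARS2 lie almost wholly within other annotated genes on the same strand. DNM1L on the opposite strand covers 63.9% of the YARS2 span. Of the 35 synthetases, 13 share more than 10% of their span with another annotated gene.

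**Figure D3:**
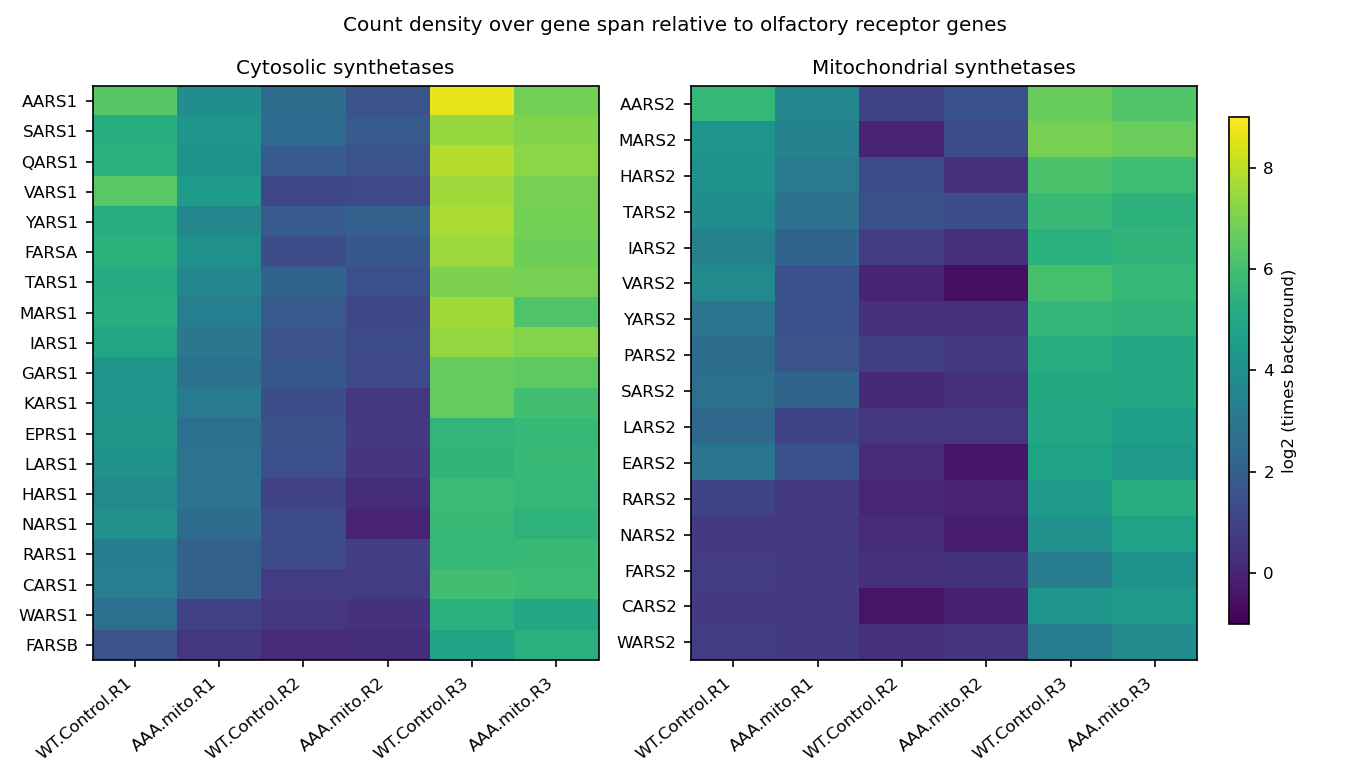
Count density over the gene span relative to olfactory receptor genes, as log2 of times background, for the cytosolic (left) and mitochondrial (right) synthetases in each of the 6 libraries, ordered within a panel by mean level. Replicate 3 of both groups is brightest and replicate 2 darkest, and most mitochondrial genes are darker than most cytosolic ones.

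Per base of gene span, the cytosolic enzymes lay further above background than the mitochondrial ones. The median was 14.3 times background for the cytosolic enzymes, from 4.38 in FARSB to 31.7 in AARS1, and 6.04 for the mitochondrial ones, from 2.97 in WARS2 to 17.4 in AARS2. The lists overlapped between these bounds. In control replicates 1 to 3 the cytosolic median stood at 19.8, 2.72 and 99.7 times background, and in the mutant replicates at 7.81, 2.24 and 76.2. The mitochondrial medians were 6.88, 1.29 and 35.3 in the control and 2.88, 1.31 and 35.1 in the mutant replicates. On this scale the mitochondrial median thus differed between groups in replicate 1 and hardly at all in replicates 2 and 3. In log2 CPM the median pair difference of the 16 mitochondrial enzymes was -0.13 in pair 2 and -0.40 in pair 3, so the scales disagreed for pair 3. AARS2, HARS2, MARS2 and TARS2 were the 4 mitochondrial enzymes more than 8 times above background.

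Each mitochondrial enzyme was set beside the cytosolic enzyme for its amino acid, EPRS1 standing for both EARS2 and PARS2. In 13 of these 16 couples the cytosolic gene had the lower paired log2 fold change, with a median difference of -0.43. The exceptions were EPRS1 with EARS2, HARS1 with HARS2, and VARS1 with VARS2. MARS1 differed most from its counterpart, by -1.12, followed by NARS1 from NARS2, by -1.10, and AARS1 from AARS2, by -1.05. Within the library pairs the cytosolic gene was the lower one in 13, 11 and 11 couples, and it was in 12 once expected background counts were subtracted. The difference between compartments was not tested.

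**Figure D4:**
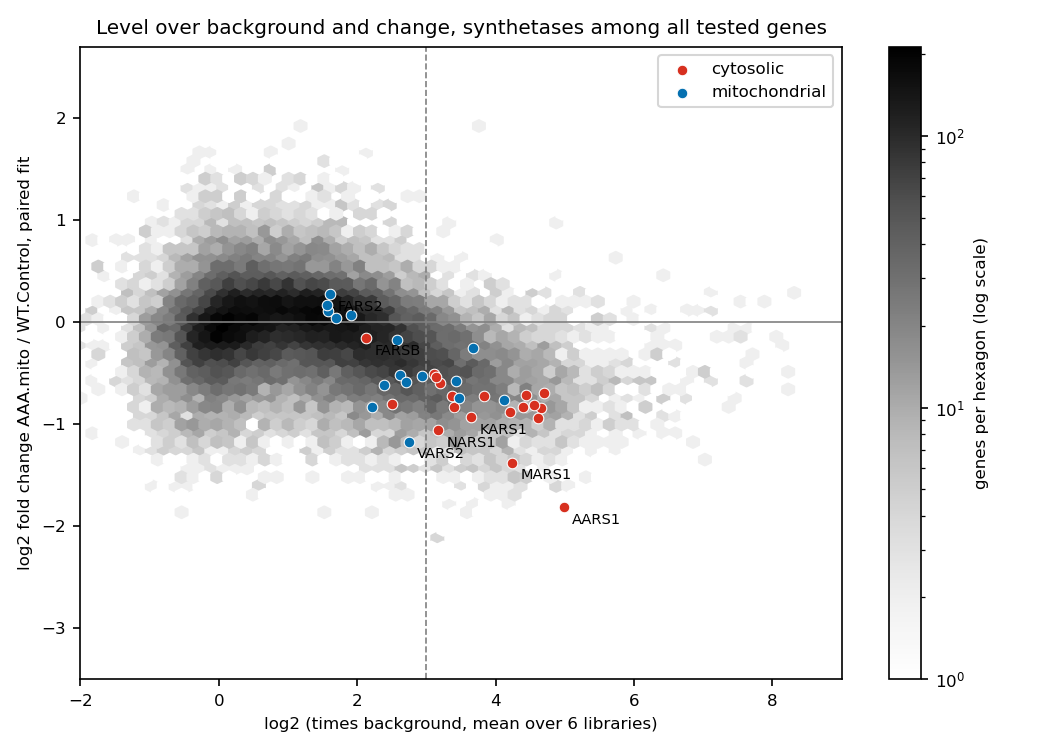
Paired log2 fold change against mean level, as log2 of times background, for all tested genes (grey) and the cytosolic and mitochondrial synthetases (colours). The dashed line marks 8 times background, and all 21 synthetases to its right lie below 0, with AARS1 at the lower right and FARS2 and WARS2 at the upper left.

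The compartments differed in level as well as in fold change. In 15 of the 16 couples the cytosolic gene lay further above background, HARS1 with HARS2 being the exception. Across the 35 genes the level and the paired log2 fold change had a Spearman correlation of -0.67, and across 31700 tested genes with a known span it was -0.28; both measures come from the same 6 libraries and share their background. Among enzymes more than 8 times above background, the median log2 fold change was -0.83 for the 17 cytosolic and -0.66 for the 4 mitochondrial enzymes. Among the others it was -0.48 for the 2 cytosolic and -0.35 for the 12 mitochondrial enzymes. With expected background counts subtracted, the medians were -0.83 for the cytosolic and -0.53 for the mitochondrial enzymes, and 0 synthetases were called, as for 0.00% of 23498 genes.

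Partners of the synthetases were counted in the paired fit, which called 1.40% of all tested genes lower and 8.47% of those far above background. These shares also apply to the lists of the next paragraph. Of the 7 genes for the complex's scaffold and for delivery of charged tRNA to the ribosome, 0 were called, and their median log2 fold change was -0.28. EEF1G, a subunit of the elongation factor's exchange complex, had -0.95 ± 0.34 (SE), with an adjusted p of 0.209 in edgeR. The 6 genes of the mitochondrial amidotransferase, formylation and delivery had a median of -0.31, with 0 called. Of these, TUFM, the mitochondrial elongation factor Tu, had -1.03 ± 0.29 (SE), with an adjusted p of 0.0611 in edgeR. In pair 2 none of those 6 genes was lower in the mutant library. The 8 genes of proofreading and selenocysteine synthesis had a median of -0.20, with 0 called.

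Among 12 genes of tRNA maturation and export the median was -0.53 and 1 was called lower. This was HSD17B10, a subunit of mitochondrial RNase P, at -0.97 ± 0.26 (SE), with an adjusted p of 0.0478 in edgeR. RTCB, the tRNA ligase, had -0.97 ± 0.26 (SE) and an adjusted p of 0.0511 in edgeR, just above the threshold. Of 16 other ATF4 targets, 2 were called lower, and their median was -0.57. ASNS, asparagine synthetase, had -1.18 ± 0.29 (SE), with an adjusted p of 0.0277 in edgeR, and DDIT4, an inhibitor of mTORC1, had -1.02 ± 0.26 (SE), with 0.0322. The calls of HSD17B10 and DDIT4 were lost in every alternative setting. Their smallest adjusted p-values over the edgeR, DESeq2 and limma-voom alternatives were 0.187 and 0.116. That of ASNS was 0.0246, and its call was lost in other alternatives, with adjusted p-values reaching 1. ASNS lies wholly within another annotated gene on the same strand, and an antisense gene covers 50.4% of DDIT4, so both counts are uncertain. The core TGATGCAA was in 1 of the 13 other ATF4 targets with a promoter window, CHAC1.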

How the data were processed

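The deposited values are raw counts per gene in 6 columns, all used. Per the submitters' processing notes, FastQC, STAR 2.7.6a and featureCounts were used; for the build, annotation and strand setting, nothing is given in the labels. Groups and replicate numbers came from the sample titles. A symbol was matched to 60401 of 60671 IDs, and GENCODE 29 on GRCh38 held 58453. The synthetases and the other gene lists were chosen with earlier results of these data known.

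Genes passing filterByExpr (33375) were tested with edgeR 4.0.16 (R 4.3.3; TMM factors, quasi-likelihood, Benjamini-Hochberg adjustment at 0.05), without and with the replicate number as a block. Same-numbered libraries deviated together from their group means (correlations 0.41, 0.76 and 0.90), and each library's most positive correlation was with its own number. Across numbers the correlations ran from -0.81 to 0.27. Deviations within a group balance each other, so these correlations are not independent. The numbers were taken as pairs on this ground, which the labels do not state. The biological coefficient of variation was 0.746 without and 0.249 with the block. Log2 CPM used a prior count of 1, and pair differences are differences of it. Times background is the count per base of span over that of 381 olfactory receptor genes, averaged on the log scale. Alternatives were other normalization factors, no filter, DESeq2 1.42.0, limma-voom 3.58.1, libraries or pairs left out, and background subtracted. On simulated data for this comparison (33375 genes, 50 changed per fold) the blocked fit recovered 30% of 2-fold and 98% of 4-fold changes with 3 false calls, and the fit without block 0%. The simulated counts had replicate effects built in, a fixed dispersion, as many raised as lowered genes, and no background difference within a pair. They therefore do not show how many calls in the real libraries are false. Library values are given for called genes, the 4 smallest p-values and 2 most positive changes per compartment, and the highest and lowest density; up to 3 genes per partner list, by p-value, may be named.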

Additional observations from a re-analysis of the deposited data

How the results depend on the processing

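Without the replicate block, the planned main setting, edgeR called 0 genes. Pairing same-numbered libraries by the replicate block gave 469 genes, 5 of them synthetases. The block gave 312 genes with upper quartile factors, 3 of them synthetases (AARS1 at -1.65, MARS1 at -1.22 and VARS2 at -0.99), and 4 with factors from genes far above background. Leaving out pair 1 or 2 under the block gave 37 or 259 genes, leaving out pair 3 gave 0, and no synthetase was called in any of these. The blocked log2 fold changes of the called genes were -1.82 for AARS1, -1.38 for MARS1, -1.06 for NARS1, -0.93 for KARS1 and -1.17 for VARS2, and all 5 were negative under every alternative run. Without the block the cytosolic median was -0.80 and the mitochondrial median -0.48. With factors from genes far above background they were -0.35 and -0.10, or -0.33 and -0.039 with the block too. When single libraries were left out without the block, the cytosolic median ranged from -1.49 (without mutant replicate 3) to -0.19 (without mutant replicate 2). The mitochondrial median ranged from -1.11 (without mutant replicate 3) to 0.28 (without control replicate 3), and was 0.11 without mutant replicate 2. In the fit without the block its direction thus changed when either control replicate 3 or mutant replicate 2 was left out. Each of these fits left the library of the same number without its partner. Under the block, the mitochondrial median stayed negative, at -0.28 without pair 1, -0.40 without pair 2 and -0.58 without pair 3. Mutant replicate 2, with 3287218 counts, and the high background of both replicate 2 libraries limit what can be detected in pair 2.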
